A study of Homo sapiens with 6 samples.

Results

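MLT1 elements are the oldest members of the mammalian apparent LTR retrotransposons (MaLR), a group of non-autonomous retroviral relatives placed in the ERVL-MaLR family. Loci were taken as MLT1 when the deposited tables gave them the family ERVL-MaLR and a subfamily name starting with MLT1, and when RNA was listed at them in at least 1 of 6 libraries. This rule gave 25785 loci of 728165 transposable element (TE) loci listed in the series, and of 82446 loci of the LTR class. They carried 58 subfamily names, of which 29 ended in -int and stand for the internal sequence between the LTRs. Loci with an LTR name, solitary or not, numbered 24629 and those of internal sequence 1156.

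RNA came from SW480, an established human colon adenocarcinoma line, selected for polyadenylated RNA and read with stranded libraries. The control group was the pLENTI CMV Clover-expressing cells (n = 3), in which the vector drives a fluorescent protein. The compared group was the pLENTI CMV Z18trunc-expressing cells (n = 3), which carry a truncated form of ZC3H18, a zinc-finger protein of nuclear RNA surveillance. Both groups were made by lentiviral transduction and antibiotic selection, in biological triplicate per the study's methods, with the transgene under a CMV promoter in both.

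A MaLR copy once consisted of an internal stretch flanked by 2 long terminal repeats, and recombination between the repeats has left most copies as solitary LTRs. An LTR holds promoter sequence and a polyadenylation signal for its own strand, so a copy can start or end a transcript, and a copy inside a gene is also read as part of the gene's RNA. Nuclear RNA surveillance removes many transcripts from outside genes and from introns, and ZC3H18 links the cap-binding complex to that machinery. The comparison asks whether RNA over these old elements differs in cells with the truncated protein.

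The sequences that the results turn on are shown 5′ to 3′ on the element's own strand, from hg38, with up to 300 bases from the 5′ end of each element. The MLT1F2 sequence is the only MLT1 locus called in the test of single loci (chr2:109979752-109980051, plus strand, of an element of 476 bp). The MLT1L sequence is the most abundant MLT1 locus of all (chr18:3607712-3608011, plus strand, of 339 bp). The MLT1D sequence had the largest fold difference among the named loci (chr6:26201578-26201877, plus strand, of 515 bp). The MLT1A0-int sequence contributed most to the internal subfamily that was called (chr13:49426088-49426387, minus strand, of 746 bp).
MLT1F2: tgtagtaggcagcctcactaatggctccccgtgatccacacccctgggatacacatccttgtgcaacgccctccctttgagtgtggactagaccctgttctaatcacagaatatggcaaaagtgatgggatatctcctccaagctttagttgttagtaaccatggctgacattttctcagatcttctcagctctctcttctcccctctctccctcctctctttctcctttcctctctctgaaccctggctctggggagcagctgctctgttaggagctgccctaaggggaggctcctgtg
MLT1L: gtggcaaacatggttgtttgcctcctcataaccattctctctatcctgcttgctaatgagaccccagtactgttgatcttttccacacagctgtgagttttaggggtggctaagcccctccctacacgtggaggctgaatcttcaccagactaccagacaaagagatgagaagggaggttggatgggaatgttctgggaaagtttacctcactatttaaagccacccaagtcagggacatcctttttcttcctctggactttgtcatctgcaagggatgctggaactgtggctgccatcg
MLT1D: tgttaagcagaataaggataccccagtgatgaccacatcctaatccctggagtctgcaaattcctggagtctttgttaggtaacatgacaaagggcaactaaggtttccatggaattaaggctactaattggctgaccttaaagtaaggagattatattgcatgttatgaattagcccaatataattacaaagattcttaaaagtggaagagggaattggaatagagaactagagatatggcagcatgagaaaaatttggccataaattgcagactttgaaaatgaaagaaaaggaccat
MLT1A0-int: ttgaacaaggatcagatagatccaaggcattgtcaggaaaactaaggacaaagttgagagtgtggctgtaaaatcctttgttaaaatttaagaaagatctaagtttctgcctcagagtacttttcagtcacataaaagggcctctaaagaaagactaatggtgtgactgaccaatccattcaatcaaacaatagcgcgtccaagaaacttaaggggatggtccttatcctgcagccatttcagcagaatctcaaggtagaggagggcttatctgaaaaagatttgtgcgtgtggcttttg
The called MLT1F2 locus has a copy on the minus strand of the same chromosome. Their 3′ ends are shown because the annotations of the pair differ only there, and capitals mark the 4 bases that the copy's annotation holds past the end of the called locus (chr2:109980188-109980227, plus strand, and chr2:110391269-110391312, minus strand).
MLT1F2 called locus: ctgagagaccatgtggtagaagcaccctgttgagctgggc
MLT1F2 copy: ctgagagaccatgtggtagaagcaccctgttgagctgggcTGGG

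As printed, none of these stretches holds AATAAA, the canonical polyadenylation signal. Over all MLT1 LTRs of 300 to 400 bp, 35.5% of 6523 held the letters AATAAA on their own strand and 9.55% on the reverse strand. THE1 and MST LTRs of that length, the younger MaLR, held them in 16.9% on their own strand and 15.5% on the reverse, and the LTR class outside MLT1 in 26.8% and 15.2%. Among the 138 MLT1 LTRs of that length with enough counts for the test of single loci, the shares were 39.1% and 5.80%. The hexamer therefore stood more often on the own strand than on the reverse in MLT1 LTRs, with a match being a description of the letters only.

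Divergence from the subfamily consensus, as RepeatMasker gives it, had a median of 23.5% for MLT1, against 13.5% for THE1 and MST loci and 19.4% for the LTR class. The lineages differed among themselves, with medians of 18.1% for MLT1B and 19.5% for MLT1A at the low end and 29.4% for MLT1O at the high end. Median element length was 335 bp. Uniquely mapped fragments gave 71.5% of the own-strand counts of MLT1, close to the 70.2% of the LTR class, although MLT1 copies are older.

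Most MLT1 loci were barely seen. An own-strand count was listed for 10971 loci and an opposite-strand count for 16175, with 1361 listed on both. Of the loci with own-strand counts, 53.2% were listed in 1 library only, 70.0% had at most 3 counts over the 6 libraries, and 849 were listed in all 6. Gene position went with strand. Of 11354 loci lying inside a gene of the other strand only, 10482 were listed on the opposite strand and 1419 on their own, whereas of 6215 loci inside a gene of the same strand 4973 were listed on their own strand. The remaining 8216 loci lay outside genes. An annotated exon of the same strand overlapped 1747 loci (6.78%), of which 534 met a UTR and 66 a coding sequence.

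Between 18226033 and 22463310 fragments were aligned in each library. A count of 0 thus allows up to 0.134 to 0.165 CPM (the count divided by aligned fragments and scaled to 1000000), a limit that covers counting error only. ZC3H18 stood at 58.4, 51.3 and 61.8 TPM (abundance per length and library) in Clover and at 752, 739 and 798 TPM in Z18trunc, a log2 change of 3.72 ± 0.09 (SE; adjusted p = 3.2e-05, limma), with endogenous and transgene RNA not separated. Of 9 colon epithelium markers 7 were expressed, with a summed level of 23322 to 24914 TPM in Clover and 22872 to 23985 TPM in Z18trunc. Most of that sum was the keratins KRT8 and KRT18, with means of 9937 and 11640 TPM in Clover. CDX2, VIL1 and CDH1 had Clover means of 47.5, 12.3 and 11.4 TPM. CDX1 was at 0 and LGALS4 at no more than 0.106 TPM. Melanocyte, fibroblast and blood markers summed to at most 4.94, 1.55 and 0.321 TPM.

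Summed over all loci, own-strand MLT1 RNA was slightly higher in Z18trunc per aligned fragment, and lower (log2 ratio −0.067) when scaled to all TE fragments, sense and antisense. The sums were 800, 810 and 779 CPM in Clover and 820, 865 and 897 CPM in Z18trunc, or 796 ± 15.7 and 861 ± 38.3 (SD, n = 3 a group). The log2 ratio was 0.11. The groups did not overlap, but the gap between the highest Clover and the lowest Z18trunc library was smaller than either SD. In bulk RNA, more cells with a transcript and more RNA per cell cannot be told apart. Most of the difference lay outside exons. Loci that overlap an exon of their strand gave 438 ± 10.5 CPM in Clover and 444 ± 5.74 in Z18trunc (log2 ratio 0.02), with overlapping groups. Loci without an exon gave 370, 360 and 346 CPM in Clover and 383, 417 and 450 CPM in Z18trunc (log2 ratio 0.22), with no overlap. The exonic part fell from 53.8, 55.5 and 55.6% of the MLT1 sum in Clover to 53.4, 51.9 and 49.8% in Z18trunc.

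Exonic RNA did not differ beyond its spread in any of its parts. Coding exons gave a log2 ratio of 0.01 over 66 loci, UTRs 0.04 over 474 loci, and other exons 0.01 over 1207 loci, each with overlapping groups. Among loci without an exon, those inside a gene of the same strand, mostly intronic sequence, gave 123 ± 6.37 CPM and 147 ± 16.5 CPM (log2 ratio 0.26). Those outside genes gave 179 ± 6.57 and 207 ± 14.9 CPM (log2 ratio 0.21), and those inside a gene of the other strand 56.2 ± 1.25 and 62.0 ± 2.59 CPM (log2 ratio 0.14). In each of these sets the libraries of the groups did not overlap.

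Fragments on the opposite strand of the same loci moved by as much or more. Their sums were 1036, 914 and 931 CPM in Clover and 1070, 1119 and 1124 CPM in Z18trunc, a log2 ratio of 0.20. Without exons the opposite-strand values were 524, 450 and 447 CPM against 558, 593 and 619 CPM (log2 ratio 0.32), again with no overlap. The own strand's share of both strands overlapped between groups, at 45.4 ± 1.71% in Clover and 43.8 ± 0.515% in Z18trunc. Opposite-strand, non-exonic fragments over LTR, LINE, SINE and DNA elements together were also higher, at 11410 ± 1028 and 13881 ± 1203 CPM (log2 ratio 0.28). The own-strand MLT1 difference therefore moved together with RNA read from the other strand, and the part of that RNA in the MLT1 result was not tested.

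**Figure D1:**
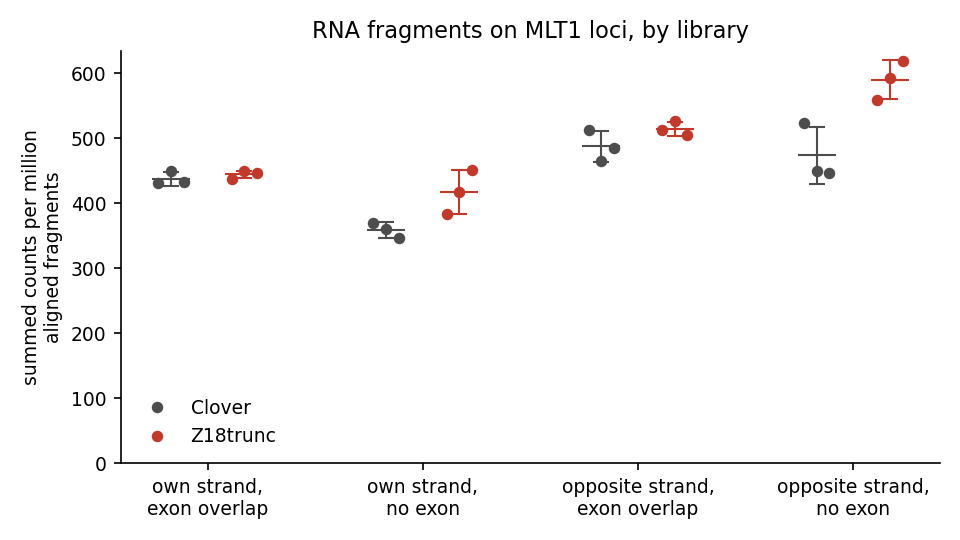
Summed CPM of MLT1 loci in each library (points; bars are mean ± SD, n = 3), split by strand and by overlap with an annotated exon of the strand read. The Clover and Z18trunc libraries overlap for exonic loci and are apart for loci without an exon, at 359 and 417 CPM on the own strand and 473 and 590 CPM on the opposite strand.

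Relative to other LTR elements, MLT1 RNA was lower in Z18trunc. MLT1 took 19.0, 19.6 and 19.0% of all own-strand LTR-class counts in Clover and 17.9, 17.6 and 18.2% in Z18trunc, with no overlap. Against all LTR loci outside MLT1, with THE1 and MST included, the log2 ratio of MLT1 fell by 0.12, from −2.07 ± 0.03 to −2.20 ± 0.03 (SD, n = 3). Against THE1 and MST loci, the nearest relatives, the log2 ratio was 0.96 ± 0.04 in Clover and 0.94 ± 0.02 in Z18trunc and the groups overlapped. LTR loci outside MLT1, THE1 and MST stood at 2935 ± 43.8 and 3493 ± 146 CPM (log2 ratio 0.25). THE1 and MST loci stood at 410 ± 19.3 and 450 ± 25.4 CPM (log2 ratio 0.13).

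The 15 MLT1 lineages, named by the letter after MLT1, all had a positive log2 ratio per aligned fragment on the own strand, from 0.02 for MLT1G to 0.28 for MLT1N. Groups did not overlap for MLT1D, MLT1E, MLT1F, MLT1H, MLT1J, MLT1L and MLT1O, and overlapped for the other 8. The lineage with the least diverged copies, MLT1B, had a log2 ratio of 0.12 and the most diverged, MLT1O, 0.17, with groups that overlapped in the former and not in the latter. No order by divergence was tested.

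Internal MLT1 sequence had a larger difference than MLT1 LTRs. Internal MLT1 loci summed to 23.4, 21.8 and 21.5 CPM in Clover and 26.8, 30.4 and 32.4 CPM in Z18trunc, or 22.3 ± 1.04 and 29.9 ± 2.81 CPM (log2 ratio 0.42). LTR loci summed to 774 ± 15.4 and 831 ± 35.4 CPM (log2 ratio 0.10). The log2 ratio of internal over LTR counts was −5.05, −5.17 and −5.14 in Clover and −4.89, −4.78 and −4.74 in Z18trunc, a difference of 0.32 between means with no overlap. The difference was 0.19 without exonic loci and 0.15 on the opposite strand, and the groups did not overlap in either.

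Own-strand counts summed by subfamily were tested with edgeR over all 897 subfamilies with at least 30 counts, of which 51 were MLT1. The internal subfamilies had higher counts in Z18trunc at an unadjusted p under 0.05 in 8 of 22 and the LTR subfamilies in 0 of 29, against 24.3% of all subfamilies and 31.9% of the other internal LTR-class subfamilies, so the internal share was near that of other internal sequence. Internal and LTR subfamilies were not tested against each other. At that level 0 MLT1 subfamilies were lower (0% of all subfamilies). The median log2 change was 0.41 for internal and 0.12 for LTR subfamilies, beside 0.21 for all 897. Over the 116 internal LTR-class subfamilies, with MLT1 included, the median was 0.28. By direction alone 18 of 22 internal and 27 of 29 LTR subfamilies were positive, but TMM scaling, which removes the shift shared by most TE, left 14 of 22 and 6 of 29. The 3 Z18trunc libraries lay above the 3 Clover libraries in 7 internal and 10 LTR subfamilies (27.8% of all subfamilies). The internal subfamilies are the smaller ones, with a median of 130 counts over the 6 libraries against 2282 for LTR subfamilies.

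**Figure D2:**
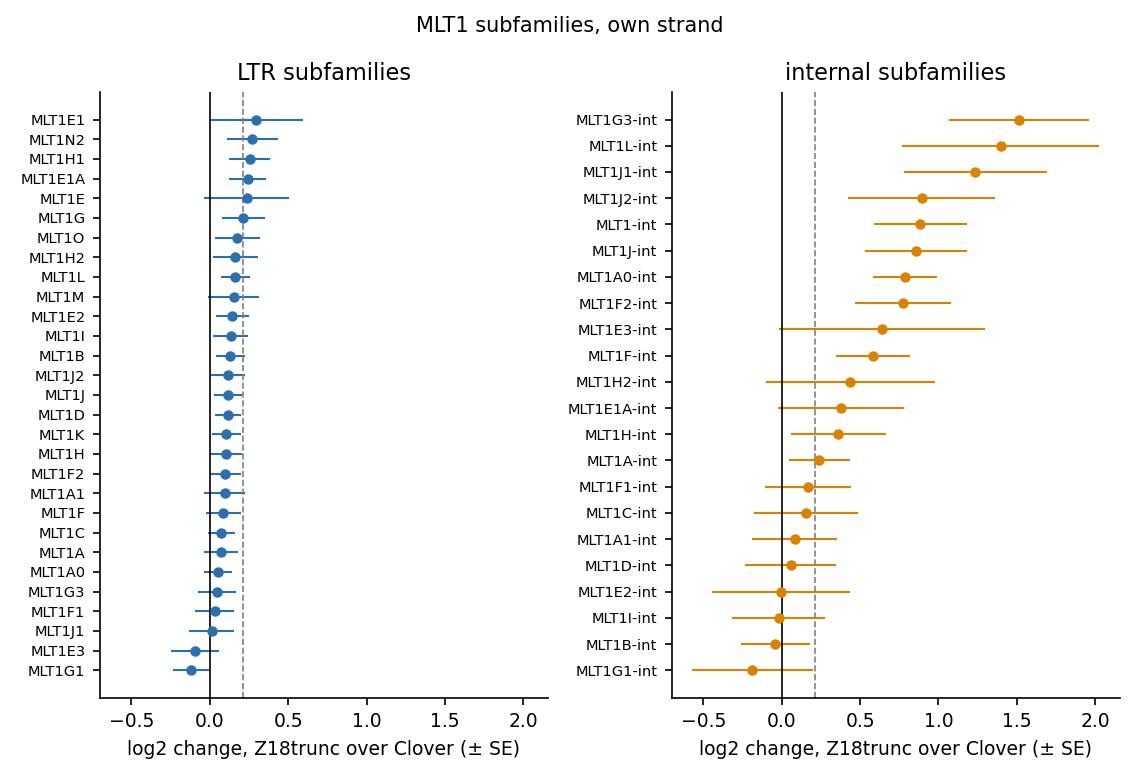
Log2 change of own-strand counts between Z18trunc and Clover (points; bars are ± SE from edgeR, 3 libraries a group) for the 29 LTR and 22 internal MLT1 subfamilies tested. The solid line is no change and the dashed line the median of all 897 subfamilies, 0.21; internal subfamilies reach 1.51, whereas LTR subfamilies lie between −0.12 and 0.29.

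One MLT1 subfamily passed adjustment over all subfamilies (1.9% of which did), the internal sequence MLT1A0-int. It stood at 1.83, 2.09 and 2.04 CPM in Clover and 2.81, 3.46 and 4.0 CPM in Z18trunc, a log2 change of 0.78 ± 0.20 (SE; adjusted p = 0.0449, edgeR). The groups did not overlap. The call was close to the threshold and was lost when any of the 3 Clover libraries (adjusted p = 0.139, 0.125 and 0.144, edgeR), Z18trunc replicate 2 (0.0856) or Z18trunc replicate 3 (0.110) was left out. Among the fits that left out 1 library, only that without Z18trunc replicate 1 kept it (0.0167). It was also lost under TMM scaling (log2 change 0.58, adjusted p = 0.224), scaling to opposite-strand TE counts (0.341) and a replicate block (0.0792). The call was kept with uniquely mapped counts (log2 change 1.06, adjusted p = 0.0081, edgeR) and with filters of 10 or 100 counts (0.0435 and 0.0482). MLT1G3-int (0.267, 0.314 and 0.255 CPM against 1.16, 0.549 and 0.667 CPM; log2 change 1.51 ± 0.45, adjusted p = 0.0658) and MLT1-int (1.11, 0.575 and 0.866 against 1.38, 1.76 and 1.67 CPM; 0.88 ± 0.30, adjusted p = 0.0824) came next, with no overlap in either.

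For these 3 internal subfamilies, the loci with the largest differences between group means were looked up. Of 53 MLT1A0-int loci with own-strand counts, a copy in an intron of CAB39L, a scaffold of the LKB1 kinase, gave 32.1% of the difference between group means, and copies within the zinc-finger genes ZNF564 and ZNF496 gave 16.8% and 10.9%. Of the MLT1-int difference, 62.4% came from a copy at chr9:95415747-95416334 (minus strand), which had 0.846, 0.470 and 0.560 CPM in Clover and 1.11, 1.26 and 0.905 CPM in Z18trunc. That copy overlaps an annotated exon of FANCC on its own strand, although it lies outside the gene spans of the deposited tables. The MLT1G3-int difference came in part from adjoining copies on chromosome 21 outside genes (chr21:45586019-45586716 and chr21:45586696-45587309, minus strand), whose counts lay mostly in Z18trunc replicate 1.

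None of the 5 most abundant LTR subfamilies had an unadjusted p under 0.05. MLT1D had 99.2 ± 5.82 CPM in Clover and 107 ± 3.38 in Z18trunc (log2 change 0.11 ± 0.08), MLT1B 54.0 ± 0.699 and 59.1 ± 3.78 (0.13 ± 0.09), and MLT1K 50.6 ± 1.47 and 54.4 ± 3.22 (0.11 ± 0.09). The groups did not overlap for MLT1D and MLT1B and overlapped for MLT1K. MLT1C and MLT1A0, the other 2 of the 5 most abundant, had log2 changes of 0.07 ± 0.08 and 0.05 ± 0.09, with overlapping groups in both. All 5 turned negative under TMM scaling.

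On the opposite strand, before adjustment (p under 0.05), 5 of 19 internal and 14 of 29 LTR subfamilies of MLT1 were higher (31.7% of all subfamilies), and 1 internal and 2 LTR subfamilies passed adjustment (12.6% of all). The median log2 change there was 0.34 for internal and 0.23 for LTR subfamilies, with the internal median above that of the LTRs as on the own strand.

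For single loci, 513 MLT1 loci had at least 30 own-strand counts and were tested among 12453 TE loci. Of these, 291 overlapped an exon of their strand, 155 a UTR and 14 a coding sequence, 157 lay outside genes, and 18 were internal. For 43 of them fewer than 50% of the counts were uniquely mapped. One locus was called (0.201% of all TE loci were). Before adjustment (p under 0.05), 26 stood higher and 17 lower in Z18trunc, against 8.17% higher and 1.77% lower over all TE loci. Under TMM scaling this split was 14 and 42. Without overlap between groups, 45 were higher (12% of all TE loci) and 28 lower (3.64%). The median log2 change was 0.05 for MLT1 and 0.17 for all TE loci tested.

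Exonic loci and loci without an exon were also counted apart, with no test between them. Of the 291 exonic loci, 12 stood higher and 15 lower before adjustment (p under 0.05), with a median log2 change of 0.01, against 7.1% higher and 2.08% lower over all exonic TE loci. Of the 222 loci without an exon, 14 were higher and 2 lower, with a median of 0.09, against 9.5% higher and 1.38% lower over all TE loci without an exon. Over all TE loci those medians were 0.12 and 0.25.

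**Figure D3:**
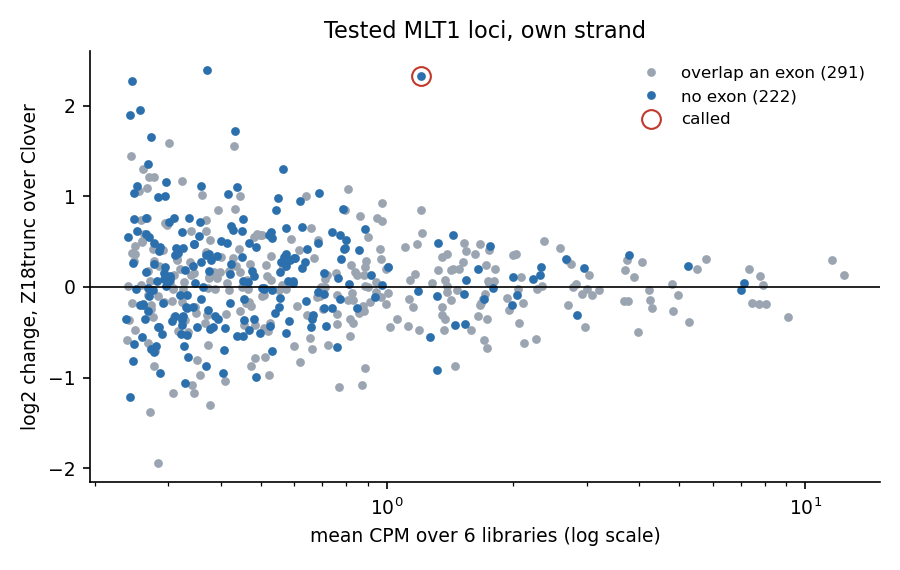
Log2 change of each of the 513 tested MLT1 loci against its mean CPM over the 6 libraries (log scale), with exonic loci in grey and loci without an exon in blue. The ringed point is the called MLT1F2 locus at a log2 change of 2.33; the other loci of similar mean CPM lie much closer to 0.

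The called locus was MLT1F2 at chr2:109979752-109980227, whose first 300 bases are shown above. It lies outside genes, 11180 bp past LIMS3-LOC440895 and 6753 bp before LINC01123, both names from the deposited gene tables. It had 0.22, 0.99 and 0.00 CPM in Clover and 2.07, 1.78 and 2.16 CPM in Z18trunc, a log2 change of 2.33 ± 0.44 (SE; adjusted p = 0.0083, edgeR), with no overlap. The call was lost without Clover replicate 3 (log2 change 1.77, adjusted p = 0.0539), Z18trunc replicate 1 (adjusted p = 0.0942) or Z18trunc replicate 3 (adjusted p = 0.0747), and the log2 change was 4.02 without Clover replicate 2.

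All 476 bases of this locus recur without a mismatch at the MLT1F2 copy 411 kb away (chr2:110391269-110391748, minus strand). That copy was the MLT1 locus with the smallest p among those lower in Z18trunc, at 1.82, 1.41 and 1.94 CPM in Clover and 0.73, 0.91 and 1.08 CPM in Z18trunc (log2 change −0.92 ± 0.29, adjusted p = 0.242). Uniquely mapped fragments made up 15.5% of the counts of the called locus and 8.66% of those of the copy, so that the authors' estimate of multiply mapped fragments set most of the split between them. In uniquely mapped counts the called locus had 1, 6 and 0 in Clover and 11, 2 and 3 in Z18trunc, and the groups overlapped. The copy had 2, 0 and 1 against 4, 4 and 3 uniquely mapped counts, higher in Z18trunc and thus opposite in direction to its estimated counts.

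Taken as 1 feature, the pair differed much less. Their estimated counts summed to 46, 46 and 38 in Clover and 63, 49 and 68 in Z18trunc, or 2.13 ± 0.245 and 2.91 ± 0.290 CPM (log2 ratio 0.45), and the groups did not overlap. The share placed at the called locus was 10.9, 41.2 and 0% in Clover and 73.9, 66.3 and 66.6% in Z18trunc. When the counts of both were summed into 1 feature in the fit of all TE loci, a step added after the data were seen, the log2 change was 0.45 and the adjusted p = 0.476 (edgeR). Neighbouring repeats of this duplicated stretch varied, and the 3 named here were picked with their counts already known. An L2a element on the 3′ side of the copy had 52.0, 33.7 and 40.4 counts in Clover and 64.9, 50.8 and 66.6 in Z18trunc, while its counterpart beside the called locus had 0, 1.34 and 1.56 against 10.1, 2.23 and 5.42. MER21C elements had 22.4, 30.1 and 44.2 against 30.8, 13.8 and 41.5 counts on the copy's side, and 29.6, 16.0 and 11.8 against 21.1, 33.8 and 40.1 on the side of the called locus. The L2a counts thus stayed mostly on the copy's side in all 6 libraries, and those of MER21C did not. An MLT1K neighbour had 24.6 counts on the side of the called locus and 1.36 on the copy's side in Z18trunc replicate 2. The same sides had 1.34 and 20.7 in Clover replicate 3 and 0 and 13 in Clover replicate 2. Its counts were evenly split in Clover replicate 1 (8.5 each), Z18trunc replicate 1 (7 each) and Z18trunc replicate 3 (11.5 each).

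**Figure D4:**
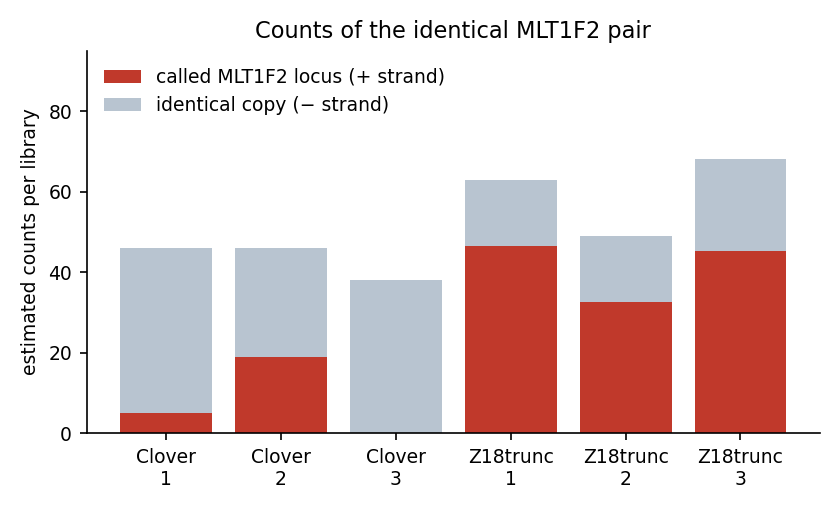
Estimated counts per library of the called MLT1F2 locus (red) and of its identical copy (grey), stacked so that the bar height is their sum. The sum rises from 38 to 46 in Clover to 49 to 68 in Z18trunc, while the share drawn in red goes from at most 41.2% to at least 66.3%.

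Identical copies were not rare. Of 24342 MLT1 loci of at least 100 bp, 879 had another MLT1 locus whose sequence equals or contains theirs, and 25 of these were among the tested loci. Values for these loci depend on how shared fragments are divided, and the tested loci named here, besides the chromosome 2 pair, have no such copy among the listed MLT1 loci.

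The 4 other loci with the smallest p-values among those higher in Z18trunc did not pass adjustment and none overlapped an exon. The MLT1D locus at chr6:26201578-26202092 lies between the histone genes H2BC7 and H4C5 and had 0.13, 0.16 and 0.05 CPM in Clover and 0.49, 0.88 and 0.52 CPM in Z18trunc (log2 change 2.39 ± 0.61, adjusted p = 0.0904). Its uniquely mapped counts were 1, 0 and 0 in Clover and 9, 14 and 9 in Z18trunc, and in the fit of uniquely mapped counts it was called (adjusted p = 0.0023, edgeR). The groups did not overlap in either kind of count. The upstream gene H2BC7 was at 1.48, 2.14 and 0.545 TPM in Clover and 2.45, 3.31 and 2.02 TPM in Z18trunc, with overlap.

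The MLT1A0-int copy in the intron of CAB39L (chr13:49425642-49426387) had 0.04, 0.16 and 0.41 CPM in Clover and 0.71, 0.66 and 0.62 CPM in Z18trunc (log2 change 1.72 ± 0.56, adjusted p = 0.259). CAB39L itself had 4.40, 4.54 and 4.96 TPM in Clover and 6.0, 6.70 and 6.19 TPM in Z18trunc (log2 change 0.37 ± 0.08, adjusted p = 0.0773, limma; 0.19 after quantile normalization, adjusted p = 0.239), and neither the gene nor the intronic copy had overlapping groups. An MLT1K copy in an intron of ZNF346, a binder of double-stranded RNA (chr5:177072821-177072958), had 0.09, 0.05 and 0.10 CPM against 0.62, 0.27 and 0.33 CPM (log2 change 2.27 ± 0.72, adjusted p = 0.245). The MLT1E1A copy at chrX:76184585-76185163, outside genes and 6271 bp past PBDC1, had 0.40, 0.26 and 0.31 CPM against 0.76, 0.88 and 0.79 CPM (log2 change 1.30 ± 0.44, adjusted p = 0.274). Clover values of the first 2 rest on a few fragments, at most 8 per library.

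Besides the chromosome 2 copy, the loci with the smallest p-values among those lower in Z18trunc were both exonic. An MLT1I copy in an exon of the lncRNA gene ENSG00000230074 (chr9:34680977-34681309) had 1.42, 1.78 and 2.45 CPM in Clover and 1.02, 1.21 and 0.86 CPM in Z18trunc (log2 change −0.87 ± 0.28, adjusted p = 0.269). An MLT1A copy in a UTR of JRK (chr8:142658218-142658387) had 1.07, 1.36 and 1.12 CPM against 0.36, 0.60 and 0.71 CPM (−1.08 ± 0.36, adjusted p = 0.274). Neither passed adjustment, although the groups did not overlap. JRK itself had 9.10, 7.53 and 7.43 TPM in Clover and 3.29, 8.85 and 6.4 TPM in Z18trunc, with overlap.

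The 5 most abundant MLT1 loci all overlapped annotated exons. An MLT1L copy in an exon of the lncRNA gene DLGAP1-AS2 led, with 12.7, 14.3 and 8.30 CPM in Clover and 13.4, 11.9 and 13.5 CPM in Z18trunc (log2 change 0.14 ± 0.15). It was followed by an MLT1J copy in a UTR of NKD1, an inhibitor of Wnt signalling (chr16:50648603-50649061), with 9.73, 11.4 and 9.98 CPM against 12.9, 12.6 and 12.8 CPM (0.30 ± 0.13, adjusted p = 0.433). NKD1 was at 63.4 ± 9.27 TPM in Clover and 80.0 ± 7.53 in Z18trunc (adjusted p = 0.153, limma). The locus and its gene were both higher, with no overlap in either, but neither passed adjustment. Under TMM scaling the log2 change of the locus was 0.125.

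An MLT1C copy in an annotated exon of MFSD12, a lysosomal transporter (chr19:3539543-3539854), went the other way. It had 9.93, 11 and 9.42 CPM in Clover and 7.6, 8.28 and 8.24 CPM in Z18trunc (log2 change −0.33 ± 0.14, adjusted p = 0.412), and its groups did not overlap. That copy lies outside the MFSD12 span of the deposited tables and inside C19orf71 on the other strand. MFSD12 itself had 160 ± 9.21 TPM in Clover and 147 ± 4.74 in Z18trunc (log2 change −0.12), with overlap. MLT1A0 copies in UTRs of IMP4, a U3 snoRNP protein (chr2:130347510-130347843), and of MAVS, an adaptor of antiviral signalling (chr20:3873550-3873828), had log2 changes of −0.19 ± 0.14 and 0.02 ± 0.16. The groups overlapped for the MAVS copy and not for the IMP4 copy. The 10 most abundant loci took 10.8 ± 0.800% of the MLT1 sum in Clover and 10.1 ± 0.468% in Z18trunc, with overlap.

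Among the most abundant loci outside genes, an MLT1H copy (chr10:90945625-90945902, plus strand) had 6.86, 8.05 and 6.42 CPM in Clover and 6.64, 7.36 and 6.86 CPM in Z18trunc (log2 change −0.03 ± 0.15), with overlap. The nearest genes on its strand are RPP30, which encodes a subunit of RNase P, on the upstream side and XLOC_008559 1398 bp downstream. An MLT1E1A copy at chr8:125652040-125652585 came next, with 4.94, 4.39 and 5.15 CPM against 5.66, 5.16 and 6.14 CPM (0.23 ± 0.16, adjusted p = 0.693).

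For 256 tested loci that lie inside exactly 1 tested gene of the same strand (209 genes), the median log2 change was 0.02 for the loci and 0.11 for the genes. Across these loci the change of locus and gene had a Pearson r of 0.23 and a Spearman rho of 0.30. For the 210 exonic loci the values were 0.33 and 0.39, and for the 46 others −0.00 and 0.02. These are descriptions across loci that share libraries, and some share a gene.

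Compared by rank of FPKM, with absent values set to 0, 197 of 10971 MLT1 loci had all 3 Z18trunc values above all 3 Clover values and 122 the reverse. Over the 38850 own-strand LTR-class loci the shares were 2.21% and 1.1%. The smallest exact two-sided p of such a comparison is 0.1. On the opposite strand 485 MLT1 loci were tested with edgeR and 0 were called (0.0575% of 12170 TE loci were), while 46 stood higher and 2 lower before adjustment (p under 0.05; 7.65% and 1.57% of all). Their median log2 change was 0.19, against 0.17 for all TE loci on that strand.

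Genes that act on LTR RNA or chromatin were looked up as background to the loci. Of 14 genes of LTR silencing, such as TRIM28 and the HUSH subunits TASOR and MPHOSPH8, 0 were called by limma (0.015% of 13300 genes were) and 2 stood higher before adjustment (p under 0.05; 25.6% of all genes). These were ATF7IP, a partner of SETDB1, with 10.2 ± 1.69 and 13.9 ± 1.15 TPM (log2 change 0.43), and CBX3, a heterochromatin protein, with 165 ± 4.43 and 220 ± 26.0 TPM (0.40). Of 12 genes of nuclear RNA surveillance, 0 were called and 9 were higher at that level, among them RBM7 (10.1 ± 0.544 and 13.2 ± 0.465 TPM, log2 change 0.35), ZCCHC8 (6.21 ± 0.668 and 8.66 ± 0.635 TPM, 0.42) and ZFC3H1 (3.83 ± 0.875 and 6.02 ± 1.0 TPM, 0.55). RBM7 and ZCCHC8 are subunits of the NEXT complex and ZFC3H1 of PAXT. Median log2 changes were 0.15 for silencing and 0.36 for surveillance genes, beside 0.11 for all genes, and 0.05 and 0.22 after quantile normalization.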

How the data were processed

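Members and gene lists were chosen with earlier results of these data known. The authors trimmed reads (cutadapt 4.6 in the submitters' processing notes), mapped them to hg38 and ran SQuIRE. The deposited TE tables give, per locus and strand, uniquely mapped whole-number counts, estimated counts in which shared fragments are divided by expectation maximization, FPKM from those estimated counts, and a divergence score (RepeatMasker milliDiv). The deposited gene tables give TPM, of which the sum per symbol was used.

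Own-strand estimated counts were rounded and tested with edgeR 4.0.16 in R 4.3.3 (quasi-likelihood, library size = aligned fragments), for LTR, LINE, SINE and DNA loci and their subfamilies that reached 30 counts over 6 libraries, with Benjamini-Hochberg adjustment over all and calls at 0.05. limma 3.58.1 tested genes with mean TPM of at least 1, after log2(TPM + 1), which understates changes of low genes. Gene spans came from the deposited tables, exons from GENCODE 44 (bedtools 2.31.1). ZC3H18 has the same coordinates in both, and all 87 chromosomes matched the reference. Named loci were every called one, the 5 higher and 3 lower with the smallest p, the 5 most abundant, and the 3 most abundant outside genes, of which 1 is not reported here. Named subfamilies were the 5 most abundant and the 3 with the smallest p. Fits were tested on simulated counts. P-values measure the spread between these libraries. Replicates differed by more than counting noise (chi-square per degree of freedom 1.61 to 1.87). Alternatives were DESeq2 1.42.0, other scalings and filters, uniquely mapped counts, a replicate block and leaving out each library.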

Additional observations from a re-analysis of the deposited data

How the results depend on the processing

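Scaling set the direction of small changes. TMM scaling moved the median log2 change of all TE loci from 0.17 to 0.00 and of MLT1 loci from 0.05 to −0.12, and scaling by TE fragments of the opposite strand outside exons moved them to −0.11 and −0.23. By TMM, the opposite-strand scaling and DESeq2 in turn, the log2 change reversed to −0.034, −0.13 and −0.031 for the MLT1L locus on chromosome 18, and to −0.15, −0.25 and −0.15 for the MLT1A0 locus on chromosome 20. The MLT1E1A locus on chromosome 8 reversed to −0.054 under the opposite-strand scaling only. Subfamilies reversed under the same 3 settings, MLT1B to −0.075, −0.16 and −0.078, MLT1D to −0.087, −0.17 and −0.091, MLT1K to −0.10, −0.18 and −0.10, MLT1C to −0.13, −0.21 and −0.13, and MLT1A0 to −0.15, −0.23 and −0.15. Leaving out 1 library gave −0.061 to 0.29 for the MLT1L locus, −0.15 to 0.17 for the MLT1A0 locus on chromosome 20 and −0.1 to 0.063 for the MLT1H locus.

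MLT1 loci called numbered 0 under DESeq2 (unadjusted p under 0.05 in 4 higher and 17 lower). Its filter gave no adjusted p to 492 of the 513 MLT1 loci, the called locus among them, so few could be called. When 1 library was left out, MLT1 loci called numbered 0 to 1. MLT1 subfamilies called numbered 0 under TMM scaling (5 higher and 2 lower unadjusted) and 0 under the opposite-strand scaling (4 and 6). Under DESeq2 they numbered 0 (2 and 2, with no adjusted p for internal subfamilies). They numbered 2 with uniquely mapped counts, MLT1A0-int among them, and 0 to 2 when 1 library was left out. Same-numbered libraries did not deviate together (correlations −0.01, −0.02 and −0.04). Differently numbered ones gave −0.01 to 0.03. All values were small, so the check showed no pairing by number and cannot exclude one. With the replicate block 1 MLT1 locus and 0 subfamilies were called (MLT1A0-int adjusted p = 0.0792, with 8 higher and 0 lower unadjusted), and the ZC3H18 call was kept. The own-strand log2 ratio was 0.22 without exonic members and −0.067 relative to TE counts of both strands, where Z18trunc lay lower. The opposite-strand ratio was 0.32 and 0.024, the latter with overlap. Rank separation held for 64 loci with at least 30 counts, where fewer loci were compared. The cause of the other changes was not tested.

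The called MLT1F2 locus had too few uniquely mapped counts for that fit. At least 10 counts over the 6 libraries admitted 1396 MLT1 loci, in place of 513.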
